A study of Mus musculus with 51 samples.

Results

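In mouse testes with a conditional knockout of Hells (Hells CKO), 8361 DMC1 peaks lay at promoters where heterozygous testes (Hells het) had none. They were chosen by the DMC1 peak positions themselves, as the autosomal peaks of the deposited Hells CKO list that overlapped no peak of the deposited Hells het list and that reached to within 1000 bp of an annotated mm10 transcription start. They made up 8361 of the 13965 autosomal peaks of the Hells CKO list, against 14759 autosomal peaks in the Hells het list. Because those lists chose them, that these promoters carried DMC1 in Hells CKO and not in Hells het is not a result. Every chromatin measurement set beside them below came from other libraries.

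DMC1 chromatin immunoprecipitation (ChIP) was done on whole testis of 6-week-old Hells CKO and Hells het males. It was deposited as 1 peak list per genotype with no score, so that its replicates could not be compared. The other libraries were of male germ cells enriched from animals 12 to 14 days old. H3K4me3 ChIP was available for Hells CKO (n = 3), Hells wt (n = 1), Spo11/Spo11 (n = 2) and Spo11/+ (n = 1), and ATAC-seq, which reads open DNA by transposase insertion, for Hells CKO (n = 3) and Hells wt (n = 2). Mice of the B6-Prdm9CAST-KI strain (KI), with Prdm9 replaced by its CAST allele, were compared with C57BL/6J mice (B6) by ATAC-seq (n = 2 each) and by H3K9ac ChIP (KI n = 2, B6 n = 3). An H3K9ac library of Spo11/Spo11 (n = 1) entered the same fit, and (B6xCAST) F1 hybrids gave allele counts of ATAC (n = 2) and H3K9ac (n = 1). HELLS ChIP came from testis of KI males 12 to 14 days old (n = 2), with 1 IgG control and 1 input. The labels used here give neither the Cre driver of the knockout nor the background strain or Prdm9 allele of the Hells lines, and do not say that replicates came from separate animals. The p-values therefore measure only the spread between these libraries, which may be technical.

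PRDM9 is a zinc-finger methyltransferase that binds set DNA motifs in early meiosis and puts H3K4me3 and H3K36me3 on the nucleosomes beside them. HELLS is a chromatin remodeller that works with it. SPO11 then cuts the DNA, and the recombinase DMC1 coats the resected single strands, so that DMC1 ChIP maps the breaks under repair. In mice without PRDM9, breaks are known to form at promoters and other sites that carry H3K4me3 from other methyltransferases.

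The promoters of 6 of these sites show what they have in common as sequence, and the Prm1 promoter is shown against them. Tnrc18 and Brd2 stood among the 6 sites with the most H3K4me3 in Hells wt and Spo11/+. Atm codes for the kinase that limits break number, Sycp3 for a protein of the chromosome axis, Psmc3ip for a cofactor of DMC1 and Dazl for an RNA-binding protein needed for entry into meiosis. Prm1 codes for a protamine of spermatids, had neither an H3K4me3 region nor a DMC1 peak, and was chosen for contrast after its values were seen. The sequences are those of RefSeq on GRCm38.p6, the build of mm10, running from 250 bases before to 50 bases after the start, and each CpG is in capitals. They lie at chr5:142817613-142817912, minus strand (Tnrc18), chr17:34119851-34120150, minus strand (Brd2), chr9:53536622-53536921, minus strand (Atm), chr10:88459337-88459636, plus strand (Sycp3), chr11:101095386-101095685, minus strand (Psmc3ip), chr17:50293571-50293870, minus strand (Dazl) and chr16:10796774-10797073, minus strand (Prm1).
Tnrc18: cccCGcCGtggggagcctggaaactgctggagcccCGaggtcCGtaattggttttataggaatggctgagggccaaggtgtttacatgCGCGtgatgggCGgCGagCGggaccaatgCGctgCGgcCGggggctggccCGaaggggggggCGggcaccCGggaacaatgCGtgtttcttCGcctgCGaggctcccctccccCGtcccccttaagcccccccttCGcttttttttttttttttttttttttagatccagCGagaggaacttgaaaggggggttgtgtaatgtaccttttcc
Brd2: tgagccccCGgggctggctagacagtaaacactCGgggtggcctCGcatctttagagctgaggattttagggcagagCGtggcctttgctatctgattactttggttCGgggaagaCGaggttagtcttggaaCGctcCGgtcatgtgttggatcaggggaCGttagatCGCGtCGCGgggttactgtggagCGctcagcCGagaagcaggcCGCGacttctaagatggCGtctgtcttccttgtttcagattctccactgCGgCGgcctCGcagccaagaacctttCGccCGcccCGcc
Atm: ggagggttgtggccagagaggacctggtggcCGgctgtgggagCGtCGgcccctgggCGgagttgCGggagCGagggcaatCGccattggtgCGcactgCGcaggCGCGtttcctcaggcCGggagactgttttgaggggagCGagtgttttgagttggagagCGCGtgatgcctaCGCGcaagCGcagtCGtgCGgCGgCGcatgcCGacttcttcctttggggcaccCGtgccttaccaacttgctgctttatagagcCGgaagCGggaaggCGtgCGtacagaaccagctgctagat
Sycp3: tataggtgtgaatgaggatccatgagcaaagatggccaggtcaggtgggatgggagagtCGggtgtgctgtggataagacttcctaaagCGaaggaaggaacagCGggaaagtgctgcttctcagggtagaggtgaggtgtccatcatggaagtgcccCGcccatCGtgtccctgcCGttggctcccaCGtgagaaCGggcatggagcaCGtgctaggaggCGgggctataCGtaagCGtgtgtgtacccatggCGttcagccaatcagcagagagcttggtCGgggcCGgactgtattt
Psmc3ip: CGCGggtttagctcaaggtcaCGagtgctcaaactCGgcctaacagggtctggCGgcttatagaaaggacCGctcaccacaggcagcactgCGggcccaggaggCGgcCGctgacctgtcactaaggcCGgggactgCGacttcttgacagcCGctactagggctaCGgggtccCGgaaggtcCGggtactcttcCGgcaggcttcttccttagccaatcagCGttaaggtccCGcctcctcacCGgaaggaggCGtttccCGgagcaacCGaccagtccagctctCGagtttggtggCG
Dazl: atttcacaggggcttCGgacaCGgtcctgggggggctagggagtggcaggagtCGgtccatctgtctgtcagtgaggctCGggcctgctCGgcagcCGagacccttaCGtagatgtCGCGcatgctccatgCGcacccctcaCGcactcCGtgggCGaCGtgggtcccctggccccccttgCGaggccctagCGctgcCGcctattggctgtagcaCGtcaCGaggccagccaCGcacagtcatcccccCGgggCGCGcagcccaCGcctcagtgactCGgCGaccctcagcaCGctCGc
Prm1: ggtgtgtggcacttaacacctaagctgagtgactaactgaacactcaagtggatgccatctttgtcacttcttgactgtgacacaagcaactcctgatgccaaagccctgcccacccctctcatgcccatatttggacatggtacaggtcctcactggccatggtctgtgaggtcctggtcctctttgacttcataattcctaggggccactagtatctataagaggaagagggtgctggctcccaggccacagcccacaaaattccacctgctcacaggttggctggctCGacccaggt

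The 6 promoters held 15 to 28 CpG in 300 bases, against 1 CpG in the Prm1 promoter. The ratio of observed to expected CpG was 0.804 at Tnrc18, 0.938 at Brd2, 0.957 at Atm, 0.666 at Sycp3, 0.815 at Psmc3ip and 0.795 at Dazl, against 0.0487 at Prm1. A ratio near 1 means that CpG is as frequent as the bases C and G allow, which is the mark of a CpG island.

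The same held over all sites with a matched sequence. A RefSeq promoter overlapped 5568 of the 8361 sites (66.6%), which gave 7608 promoters, since neighbouring and divergent genes can share a site. Their median CpG ratio was 0.814 (quartiles 0.658 and 0.941), and that of 544 promoters with DMC1 peaks in both lists was 0.84. It was 0.56 at 9803 promoters with H3K4me3 and no DMC1 peak. It was 0.241 at 307 promoters with a DMC1 peak in Hells het only and 0.17 at 13103 promoters with neither mark. A ratio of at least 0.6 was found at 81.2% of the 7608 promoters and at 83.5% of the 544. Of promoters with H3K4me3 and no DMC1 peak 45.8% reached it, and of all 31365 autosomal promoters 36.4%. Part of this went with the H3K4me3 level, and a gap remained within it. With promoters split into 5 equal groups by H3K4me3, the median ratio in the highest group was 0.866 where a CKO-only peak lay and 0.784 where no DMC1 peak lay, at median levels of 71.7 and 73.9 CPM (counts per TMM-scaled library total). In the lowest group it was 0.428 against 0.334, where the levels differed, at 10.5 and 5.93 CPM.

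Short motifs of common promoter factors differed in frequency. The ETS, GC box and NRF1 letters below each hold a CpG, and the shares were not matched for CpG content. On either strand, the ETS motif CCGGAAG stood in 19.6% of these promoters, against 9.0% of all RefSeq promoters and 10.2% of those with H3K4me3 and no DMC1 peak. The GC box GGGCGG, bound by SP1, stood in 67.6%, against 35.95% of all promoters and 49.6% of those with H3K4me3 and no DMC1 peak. The NRF1 motif GCGCATG stood in 7.94%, against 3.9% of all promoters and 4.66% of those with H3K4me3 and no DMC1 peak. The TATA box TATAAA ran the other way, in 6.31% against 13.6% of all promoters. It stood in 8.47% of those with H3K4me3 and no DMC1 peak, and in 21.9% of those with neither mark. CCAAT was about equally frequent, at 38.8% against 37.3% of all promoters and 34.4% of those with H3K4me3 and no DMC1 peak. Promoters with DMC1 peaks in both lists had ETS in 22.8%, the GC box in 66.2%, NRF1 in 7.72%, TATA in 6.62% and CCAAT in 40.4%. Psmc3ip held 3 ETS matches and Dazl held 2 NRF1 matches. The Psmc3ip peak (chr11:101094371-101095419) overlapped only the end of the printed promoter, and its ETS matches lay outside the peak. These letters are a match to a sequence and do not show binding.

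Most of the new peaks spanned a start, which follows in part from their choice by distance. The median distance of the peak centre from the nearest start was 91 bp downstream (quartiles 56 bp upstream and 319 bp downstream), and 7560 of 8361 peaks (90.4%) spanned a start. The peaks were 2216 bp wide at the median (quartiles 1413 and 3088), against 3410 bp for the 630 promoter peaks found in both lists and 1459.5 bp for the 4036 CKO-only peaks away from promoters. A wider peak is more likely to overlap a Hells het peak or to reach a start, so that the sorting sets part of these differences. Of the 6591 peaks with protein-coding starts on 1 strand only, 4421 (67.1%) were centred downstream, at a median of 107 bp into the gene. Another 905 held starts on both strands, as at the shared promoters of Atm and Npat and of Brca1 and Nbr1. The widest peaks lay over Osr2, a transcription factor gene (10786 bp), over Gm37820 (10317 bp), and over Spry2, an inhibitor of growth factor signalling (8035 bp).

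Few peaks depended on the exact distance. Just inside it lay the peaks near N6amt1 (chr16:87355227-87356045), whose edge stood 982 bp from the start, and near 5330439A09Rik (chr8:54601975-54602840, 988 bp). Just outside lay those near Tanc1 (chr2:59842742-59844241, 1002 bp) and 2310034G01Rik (chr19:46347712-46349297, 1005 bp). A window of 500 bp gave 8145 peaks and one of 2000 bp gave 8609.

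In the deposited map of 11 chromatin states, made from C57BL/6J histone marks, 78.9% of the sites had their centre in state 1 and 18.6% in state 2. Those states covered 1.6% and 1.21% of the genome, and held 37.9% and 18.1% of all protein-coding starts. State 7 held 9 sites (0.108%), against 11.4% of the promoter peaks found in both lists and 67.3% of the promoter peaks found in Hells het only. Both of those classes are defined by Hells het peaks, which the rule removed here, and of all protein-coding starts 0.443% lay in state 7. The CKO-only peaks away from promoters lay in state 1 in 45.3% and in state 2 in 43.5% of cases.

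The more H3K4me3 a promoter carried where HELLS was present, the more often it held a new DMC1 peak. The 23784 autosomal promoter regions of the H3K4me3 table were split into 10 equal groups by their level in Hells wt and Spo11/+ (CPM), and 7840 of them (33.0%) held a CKO-only peak. In the group with the highest level (median 72.04 CPM), 74.6% did (exact 95% binomial interval 72.8 to 76.3%). In the group with the lowest level (median 1.53 CPM), 0.336% did (interval 0.145 to 0.662%). Between them the share rose at every step, through 1.39, 5.8, 14.8, 22.8, 30.4, 46.7, 61.96 and 70.9%. With the level taken per kb of region, the share was 78.2% in the highest and 0.379% in the lowest group. Promoters are not replicates of a condition, and these intervals cover counting error only.

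ATAC signal in Hells wt gave a like order over 22828 promoter regions, with 72.1% of the highest and 4.51% of the lowest of 10 groups holding a new peak. Width went with both measures. With sites split into 5 equal groups by rising H3K4me3, the median width of the DMC1 peaks was 1584.5, 2018, 2336, 2693.5 and 2930 bp. Over 7542 sites with both measures, Spearman's rho was 0.331 between DMC1 width and H3K4me3, 0.311 between width and ATAC, and 0.818 between H3K4me3 and ATAC. Reads of H3K4me3 and ATAC both grow with the length of a region, so that these values share a part of their variation.

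**Figure D1:**
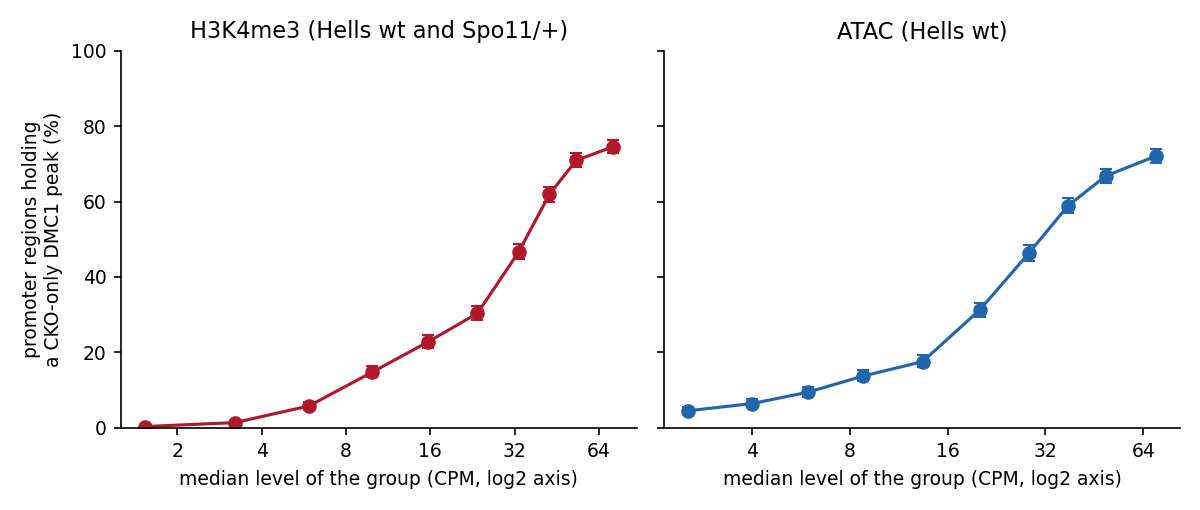
Share of promoter regions that held a CKO-only DMC1 peak (vertical axis, percent) against the median level of each of 10 equal groups of promoters (CPM, log2 axis), for H3K4me3 in Hells wt and Spo11/+ (left) and ATAC in Hells wt (right). Points are these groups and bars are exact 95% binomial intervals; the share runs between 0.336% and 74.6% for H3K4me3 and between 4.51% and 72.1% for ATAC.

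Not every strongly marked promoter held a new peak. In the highest of the 10 H3K4me3 groups, 1774 promoters held a CKO-only peak and 412 held no DMC1 peak in either list. The median level was 71.7 CPM in the 1774 and 73.0 CPM in the 412, whose H3K4me3 regions were wider, at 5307.5 bp against 4158 bp in the 1774. Per kb of region the median was 18.01 CPM in the 1774 and 14.3 CPM in the 412. State 1 held 83.3% of the 1774 and 79.9% of the 412.

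New peaks were less frequent near the distal end of most autosomes, also at promoters above the median H3K4me3 level. Among promoters above the median H3K4me3 level, 53 of 402 in the last 3 Mb held a CKO-only peak (13.2%, interval 10.03 to 16.9%), against 6714 of 11490 elsewhere (58.4%, interval 57.5 to 59.3%). Their H3K4me3 was alike, at a median of 42.6 CPM in each. The share was lower in the last 3 Mb on 19 of 19 autosomes, and on 6 of them no such promoter there held a new peak. Those 6, chromosomes 1, 3, 8, 12, 17 and 18, had only 4 to 10 such promoters each in the last 3 Mb. Chromosome 4 supplied 20 of the 53, with 20 of its 41 promoters in the last 3 Mb (48.8%) against 51.5% elsewhere on it. Chromosome 19 had 31.6% against 63.5%. Without chromosome 4 the share was 33 of 361 in the last 3 Mb (9.14%, interval 6.38 to 12.6%), against 58.9% elsewhere. It was 13.6, 13.1 and 12.8% in the last, the next and the following Mb, 39.2% between 3 and 5 Mb, and 50.8% between 5 and 10 Mb. The distances were set after these values had been seen.

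Peaks excluded by the rule ran the other way at the very end. Promoters with DMC1 in both lists made up 12.1% of those in the last Mb and 7.21% of those in the last 3 Mb, against 3.92% elsewhere. The choice of sites removes every Hells CKO peak that overlaps a Hells het peak, and the last 3 Mb held 418 Hells het peaks.

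**Figure D2:**
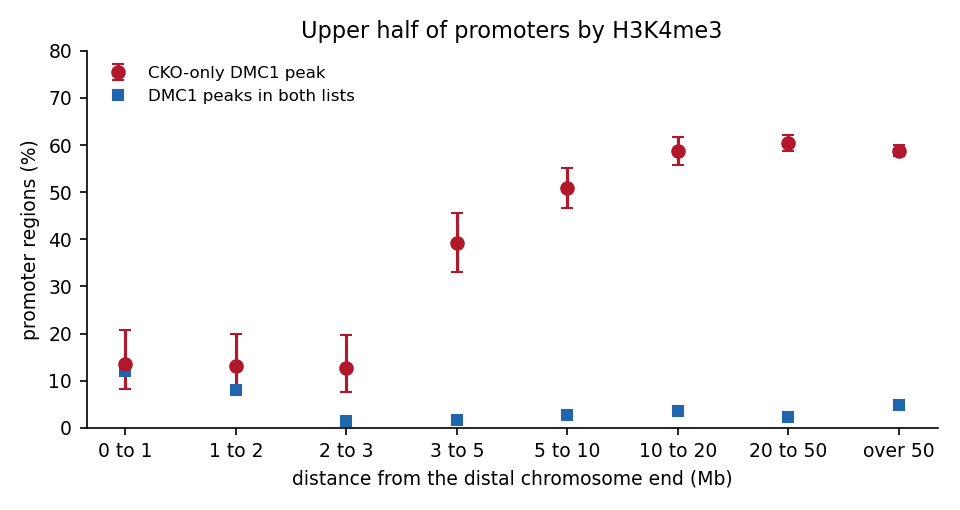
Share of promoter regions above the median H3K4me3 level (vertical axis, percent) by distance from the distal chromosome end (Mb). Circles are promoters with a CKO-only DMC1 peak, with exact 95% binomial intervals, and squares are promoters with DMC1 peaks in both lists; the circles stand at 12.8 to 13.6% within 3 Mb and at 58.8% beyond 50 Mb.

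The genes at these promoters included most of the genes that act in meiotic recombination itself. Over all 20780 autosomal protein-coding genes, 7887 (38.0%) had a new peak at a promoter. Of 16 genes of break formation, 12 did, among them Spo11, which makes the break, its partners Rec114, Mei4, Mei1 and Gm960 (the TOPOVIBL subunit), the axis proteins Hormad1 and Hormad2, Ankrd31, Cxxc1, Ewsr1, Atm and Prdm9. Another 3, Hells, Trip13 and Zcwpw1, had DMC1 peaks in both lists. Of 15 axis and synaptonemal complex genes, 12 had a new peak, among them Sycp1, Sycp3, Rec8 and Stag3. Of 19 genes of strand invasion and crossover formation, 15 did, among them Dmc1, Msh4 and Hfm1.

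Other lists were counted in the same way, and differences between lists were not tested. New peaks lay at 24 of 28 genes of the DNA damage response (85.7%), 30 of 38 splicing factors (78.9%), 61 of 79 ribosomal protein genes (77.2%) and 14 of 20 housekeeping genes. Meiotic entry genes had 9 of 11, DNA methylation genes and HELLS cofactors 13 of 19 (Dnmt1, Uhrf1 and Cdca7 among them), piRNA pathway genes 9 of 16 and replication-dependent histone genes 42 of 66.

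The remaining lists are of genes of other tissues, other cells of the testis or other stages. New peaks lay at 6 of 1086 olfactory receptor genes (0.552%, interval 0.203 to 1.2%), 993 of which had neither an H3K4me3 region nor a DMC1 peak. Of 39 Hox genes, 34 had an H3K4me3 region and no DMC1 peak, and 5 had a new peak (Hoxa2, Hoxa4, Hoxa7, Hoxa9 and Hoxd8). Of 21 pachytene and spermatid genes, 5 had a new peak and 9, Prm1 among them, had neither mark. Of 16 Sertoli cell markers, 14 had H3K4me3 and no DMC1 peak, among them Sox9, Wt1 and Amh, and 2 (Aard and Nr5a1) had a new peak. Leydig cell markers had 0 of 8 (interval 0 to 36.9%), peritubular and endothelial markers 2 of 10, and blood and macrophage markers 2 of 7 (interval 3.67 to 71.0%). Spermatogonial genes had 8 of 19 (42.1%). Whether the H3K4me3 of such promoters came from germ cells or from other cells of the preparation was not tested.

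**Figure D3:**
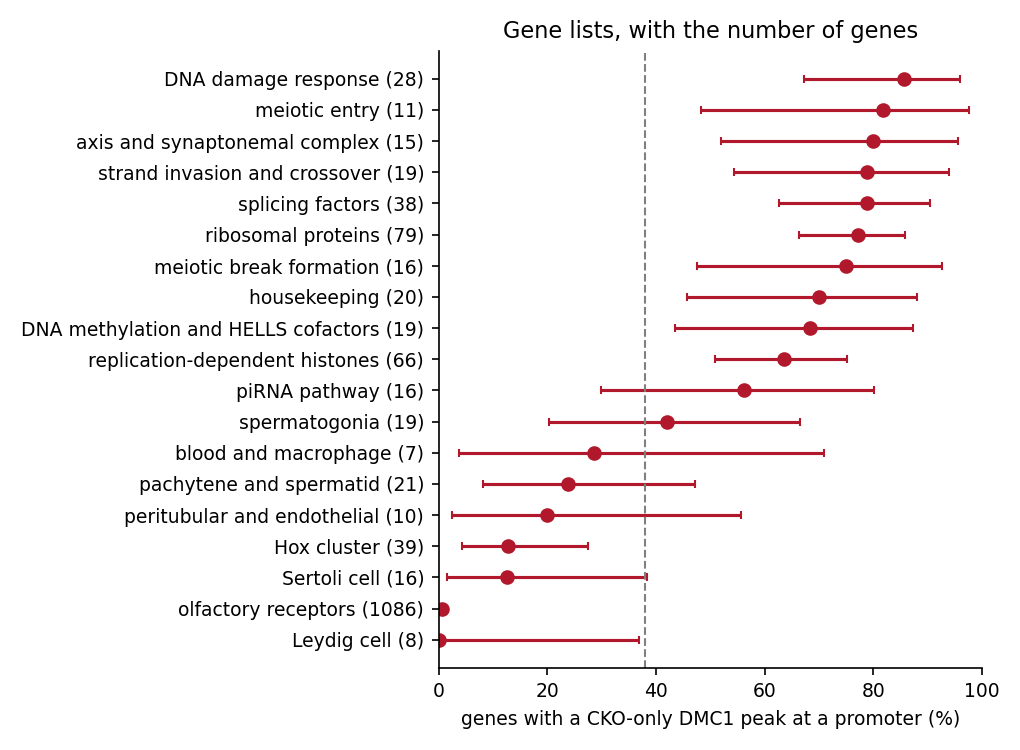
Share of genes with a CKO-only DMC1 peak at a promoter (horizontal axis, percent) in each gene list, with the number of genes in brackets. Points carry exact 95% binomial intervals and the dashed line is the share of all autosomal protein-coding genes (38.0%); the DNA damage response list is highest at 85.7% and the Leydig list is at 0.

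No promoter of this set passed the test for a change of H3K4me3 without HELLS. Of the 8361 sites, 8092 (96.8%) overlapped a region of the H3K4me3 table, and over their 7827 regions the log2 fold change of Hells CKO over Hells wt was 0.35 at the median, between quartiles of 0.20 and 0.47. In edgeR's quasi-likelihood test with Benjamini-Hochberg adjustment at 0.05, 0 regions were higher and 0 lower, where 0.0279% of all 78959 regions tested were higher and 11.7% lower. At an unadjusted p under 0.05, 367 were higher and 8 lower, where 1.9% of all regions were higher and 16.2% lower. DESeq2 called 513 higher and 0 lower, where it called 1.32% of all regions higher and 9.88% lower. In edgeR's fit the standard error at the sites was 0.246 at the median, so that small changes of a single promoter could not be called. The median fold change over all regions was -0.02. Away from promoters, 6652 of the 10098 regions of peaks found in Hells het only were lower and 0 higher, at a median of -2.30.

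The median of the sites was 59.3, 45.5 and 54.2 CPM in the 3 Hells CKO libraries (mean 53.0 ± 6.98, SD), against 40.9 CPM in the 1 Hells wt library. All 3 Hells CKO libraries were above it. It was 48.2 and 49.7 CPM in Spo11/Spo11 and 48.7 CPM in Spo11/+, levels inside the range of the Hells CKO libraries. The library numbers of Hells CKO replicate 2 and Hells wt are adjacent in the labels, which name no batch. The median difference of that replicate alone over Hells wt was 0.13. With scaling factors taken from promoter regions only, the median fold change was 0.15, and over all regions -0.22.

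Single libraries moved the count of calls. Without Hells CKO replicate 2, 1514 regions were higher and 0 lower, where 3.22% of all regions were higher and 12.9% lower. Without replicate 1, 9 were higher and 16 lower, where 0.575% of all were higher and 13.6% lower. Without replicate 3, 0 were called, where 0.0076% of all were higher and 8.73% lower. Promoters without a DMC1 peak had a median of 0.09 (10 higher, 80 lower of 14003), and promoters with DMC1 in both lists had 0.34 (0 higher, 75 lower of 599). Fewer cells of a type and less signal per cell cannot be told apart in such libraries.

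Summed promoter H3K4me3 of the Sertoli cell markers was 1145 to 1662 CPM in Hells CKO, against 1017 CPM in Hells wt, and that of 6 germ cell markers 236 to 329 CPM against 238 CPM. Leydig cell markers had 19.4 to 32.4 CPM against 24.4 CPM, peritubular and endothelial ones 301 to 335 CPM against 279 CPM, and those of blood 91.8 to 105 CPM (4 of 8 with a region) against 86.9 CPM. All 16 Sertoli and all 6 germ cell markers had a region, and a promoter mark is not expression. Their part in the result was not tested.

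**Figure D4:**
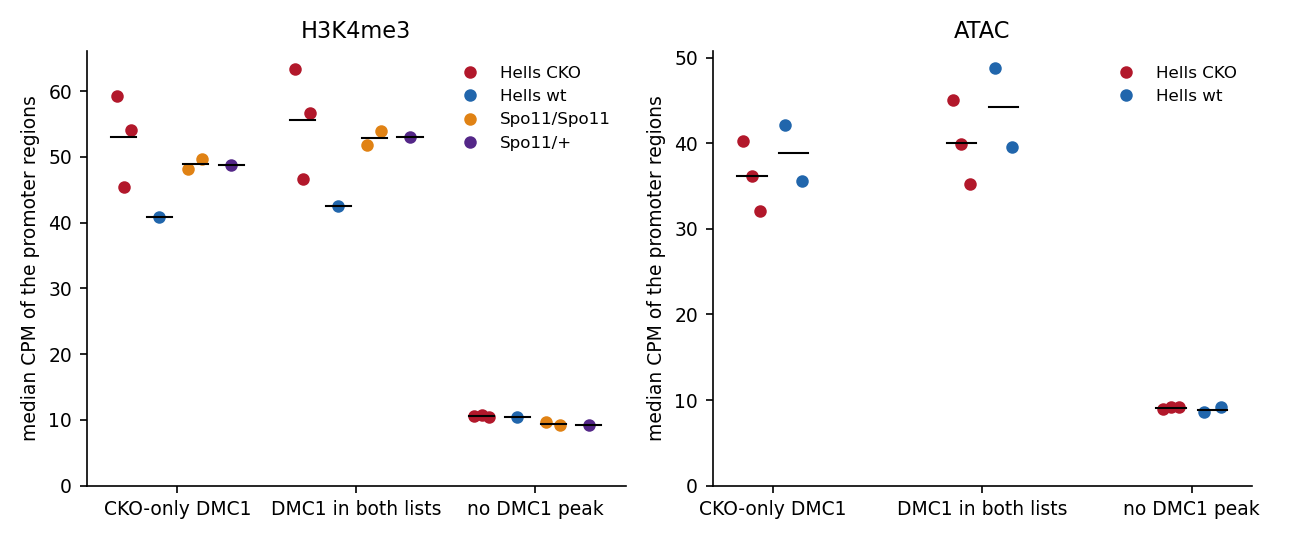
Median level of promoter regions in each library (vertical axis, CPM) for H3K4me3 (left) and ATAC (right), in promoters with a CKO-only DMC1 peak, with DMC1 in both lists and with no DMC1 peak. Points are libraries and bars are group means; at CKO-only promoters H3K4me3 is 45.5 to 59.3 CPM in Hells CKO, against 40.9 CPM in Hells wt, and ATAC ranges overlap.

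Named sites show how these values were spread. The Tnrc18 promoter had 364, 248 and 358 CPM of H3K4me3 in Hells CKO, against 204 CPM in Hells wt. All 3 Hells CKO values were higher, and the log2 fold change of 0.66 (SE 0.304) did not pass (adjusted p = 0.285, edgeR quasi-likelihood test). The Brd2 promoter, of a bromodomain protein that reads acetylated histones, had 230, 195 and 245 CPM in Hells CKO, against 166 CPM in Hells wt (adjusted p = 0.456, edgeR quasi-likelihood test). The highest level stood at Crebzf, with 487, 1136 and 730 CPM in Hells CKO, against 1128 CPM in Hells wt, and its peak was 811 bp wide, centred at -1104 bp from the start, in state 3. The groups overlapped there, with replicates of Hells CKO farther apart than at the other sites named here.

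Promoters of recombination genes did not pass either. Atm had 107, 72.6 and 85.3 CPM of H3K4me3 in Hells CKO, against 68.3 CPM in Hells wt. Prdm9 had 116, 61.7 and 69.9 CPM in Hells CKO, against 55.4 CPM in Hells wt. In both genes the Hells CKO libraries were all above the Hells wt library, and neither passed (adjusted p = 0.548 and 0.436, edgeR quasi-likelihood test).

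At Sycp3, Psmc3ip and Dazl the groups overlapped. Sycp3 had 65.1, 55.9 and 41.9 CPM in Hells CKO, against 48.8 CPM in Hells wt. Psmc3ip had 68.5, 45.5 and 52.6 CPM in Hells CKO, against 47.1 CPM in Hells wt. Dazl had 77.3, 52.5 and 42.2 CPM in Hells CKO, against 46.1 CPM in Hells wt. Replicate 1 was the highest of the 3 Hells CKO libraries at each of these genes.

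The sites with the lowest p did not pass the adjusted threshold. Gm47955 had 9.36, 8.77 and 7.55 CPM in Hells CKO, against 14.6 CPM in Hells wt, with a log2 fold change of -0.77 (SE 0.231, adjusted p = 0.0563, edgeR quasi-likelihood test). Slc18b1, a transporter gene, had 39.4, 26.1 and 36.6 CPM in Hells CKO, against 18.7 CPM in Hells wt, with a log2 fold change of 0.87 (adjusted p = 0.0654, edgeR quasi-likelihood test). Tnfaip6 had 31.4, 19.0 and 25.2 CPM in Hells CKO, against 13.5 CPM in Hells wt (adjusted p = 0.0851, edgeR quasi-likelihood test). In each the Hells wt value lay outside the range of the 3 Hells CKO values.

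No gene list held a called site. Over the 15 lists with at least 5 regions, the list medians of H3K4me3 ran from -0.19 (olfactory receptors) to 0.50 (ribosomal proteins) on the log2 scale. They were 0.25 for break formation, 0.10 for the axis, 0.16 for strand invasion, 0.45 for the DNA damage response, 0.49 for splicing factors and 0.01 for Hox genes, beside 0.35 for all sites.

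No promoter of this set passed the test for a change of ATAC signal without HELLS. The signal at 7339 regions gave a log2 fold change of Hells CKO over Hells wt of -0.11 at the median, between quartiles of -0.16 and -0.04. The edgeR quasi-likelihood test called 0 higher and 0 lower, where 0% of all 95033 regions were higher and 0.382% lower. At an unadjusted p under 0.05, 1 was higher and 3 were lower, where 0.158% of all regions were higher and 1.39% lower. DESeq2 called 0 in each direction, where it called 0% of all higher and 0.443% lower. The standard error of the fold change was 0.191 at the median, so that small changes of a single promoter could not be called.

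The median was 40.2, 36.2 and 32.1 CPM in Hells CKO (mean 36.2 ± 4.05, SD, n = 3), against 42.1 and 35.5 CPM in Hells wt (mean 38.8 ± 4.67, SD, n = 2). The groups overlapped, and the sign of the median fold change rested on single libraries. It was 0.03 without Hells wt replicate 1 and -0.24 without Hells wt replicate 2, and -0.19, -0.10 and -0.03 without Hells CKO replicates 1, 2 and 3. Libraries with nearby library numbers were taken as a series, which the labels do not name. Within a series the median difference was -0.08 for replicate 1 of each genotype and 0.02 for replicate 2. With the series as a block the test called 1 region higher, where 0.0147% of all were higher, and the median was -0.03. Germ cell markers summed to 167 to 307 CPM in Hells CKO, against 200.4 to 320.1 CPM in Hells wt. Sertoli markers summed to 770 to 867 CPM in Hells CKO, against 765 to 839 CPM in Hells wt. Leydig, peritubular and blood markers overlapped between the groups as well.

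Among named sites, Tnrc18 had 137, 145 and 129 CPM of ATAC signal in Hells CKO, against 129 and 140 CPM in Hells wt. Atm had 66.7, 58.9 and 55.2 CPM in Hells CKO, against 72.4 and 57.2 CPM in Hells wt. Sycp3 had 49.1, 25.7 and 21.3 CPM in Hells CKO, against 49.8 and 27.4 CPM in Hells wt. The groups overlapped at all 3, and at Sycp3 replicate 1 of each genotype stood far above the other replicates.

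The lowest p were those of Gm49313 (log2 fold change 0.80, unadjusted p = 0.0262), Galntl6 (-1.004, unadjusted p = 0.031) and Gm16270 (-0.51, unadjusted p = 0.0389), each with an adjusted p of 1.0 in edgeR's quasi-likelihood test. Gm49313 had 5.34, 6.38 and 7.03 CPM in Hells CKO, against 3.24 and 3.88 CPM in Hells wt. Galntl6, a glycosyltransferase gene, had 1.93, 1.92 and 1.08 CPM in Hells CKO, against 3.4 and 3.26 CPM in Hells wt. The groups did not overlap at these sites, which were chosen for their low p.

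**Figure D5:**
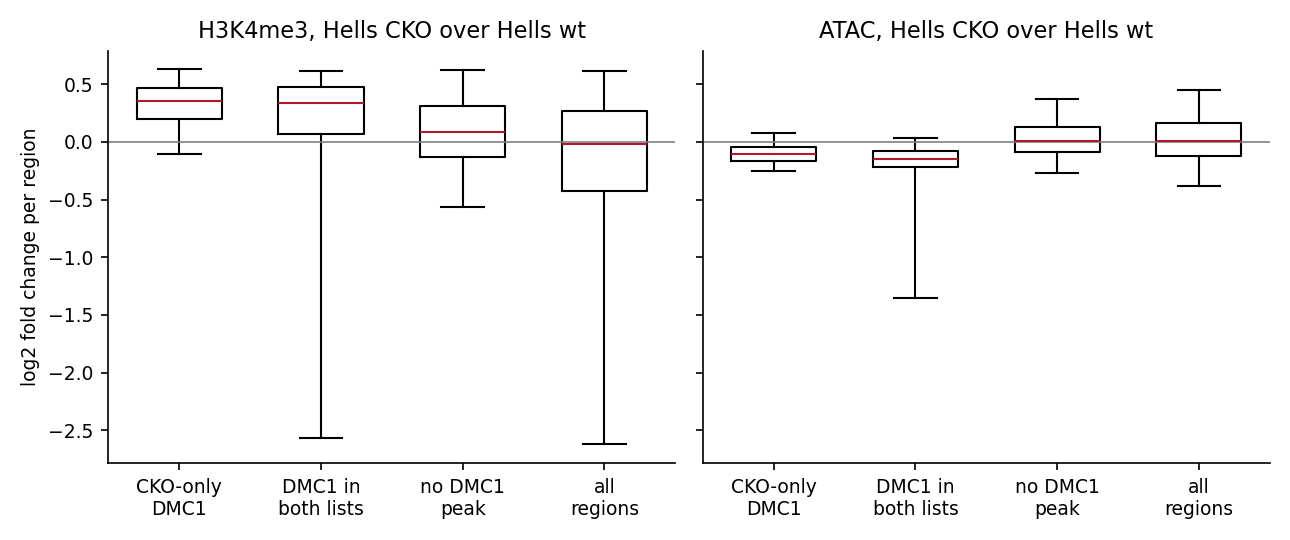
Log2 fold change per region of Hells CKO over Hells wt (vertical axis) for H3K4me3 (left) and ATAC (right), in promoters with a CKO-only DMC1 peak, with DMC1 in both lists, with no DMC1 peak, and in all regions. Boxes are quartiles with the median in red and whiskers run between the 5th and 95th percentiles; at CKO-only promoters the median is 0.35 for H3K4me3 and -0.11 for ATAC.

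The mark at these promoters was also read where breaks are not made. In Spo11/Spo11 mutants, which lack the break enzyme, H3K4me3 had a median log2 fold change of 0.00 over Spo11/+, and edgeR's quasi-likelihood test called 0 higher and 0 lower, where 0% of all regions were higher and 0% lower. At an unadjusted p under 0.05, 0 of these regions passed in either direction, where 0.0418% of all regions were higher and 0.16% lower. DESeq2 called 0 of them, where it called 0.00507% of all higher and 0.00127% lower. With 1 Spo11/+ library, the standard error of the fold change was 0.252 at the median. Small changes of a single promoter could not be called there. At Atm, H3K4me3 was 88.2 and 90.0 CPM in Spo11/Spo11, against 92.2 CPM in Spo11/+, and at Prdm9 it was 75.5 and 78.5 CPM against 82.2 CPM.

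Few of these promoters passed the test under the other Prdm9 allele, with HELLS present. ATAC signal at 7667 regions had a median log2 fold change of -0.19 in KI over B6, with 3 higher and 8 lower by edgeR's quasi-likelihood test, where 7.14% of all 81887 regions were higher and 2.27% lower. The library medians were 46.4 and 43.4 CPM in KI, against 54.3 and 48.7 CPM in B6. Without B6 replicate 1, 110 were higher and 998 lower, where 12.7% of all regions were higher and 10.3% lower. Without B6 replicate 2, 19 were higher and 2863 lower, where 10.6% of all were higher and 9.51% lower. Without KI replicate 1 or 2, 0 were lower, where 1.29% and 1.5% of all were lower. H3K9ac at 7744 regions had a median of 0.05 (-0.10 when scaled by library size only), with 45 higher and 0 lower, where 12.1% of all 91909 regions were higher and 0.208% lower. It was 46.1 and 40.4 CPM in KI, against 43.2, 42.1 and 40.9 CPM in B6, and the groups overlapped. Without B6 replicate 2, 1736 were higher and 1232 lower, where 28.7% of all regions were higher and 26.8% lower. Without B6 replicate 1, 17 were higher, where 7.65% of all were, and without B6 replicate 3, 6 were, where 2.16% of all were. The median log2 fold change was -0.07 without KI replicate 1 and 0.13 without KI replicate 2. The median of the sites in the Spo11/Spo11 library of that fit was 49.0 CPM. B6 replicate 2 stood apart at the peaks found in Hells het only, away from promoters. H3K9ac there was 1.25 and 1.45 CPM in KI, against 1.52, 6.55 and 1.57 CPM in B6, beside 4.13 CPM in Spo11/Spo11. The part of that library in the calls at promoters is shown by the counts without it, and its cause was not tested.

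The 3 promoters that rose in ATAC were those of Mia2, a gene of secretory transport, Gm48265 and Spx, which codes for a peptide hormone. Mia2 had 11.0 and 10.5 CPM in KI, against 4.47 and 4.5 CPM in B6 (log2 fold change 1.26, adjusted p = 0.000582, edgeR quasi-likelihood test). Gm48265 had 41.1 and 44.8 CPM in KI, against 23.8 and 22.4 CPM in B6. Spx had 18.8 and 16.9 CPM in KI, against 10.4 and 10.3 CPM in B6. KI values lay above both B6 values at all 3. Those that fell were Mreg (-0.63), Gpr176, Ncoa4, Nrip3, Uchl1 (-0.53), Zfp612, Hlcs and Pou6f1.

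HELLS itself was found at part of these promoters. In KI testis, 917 of the 8361 sites (11.0%, interval 10.3 to 11.7%) overlapped a HELLS peak, against 12.9% of promoter peaks in both lists, 1.68% of promoters with H3K4me3 and no DMC1 peak, 0.471% of CKO-only peaks away from promoters and 0.393% of promoter peaks in Hells het only. They took up 932 of the 2661 autosomal HELLS peaks (35.02%). On those 932 the median count was 55 and 47 in the HELLS libraries, against 10 in IgG and 17 in the input, and 931 were above both controls in both HELLS libraries. The regions are the deposited HELLS peaks, so that counts above the controls there are no separate evidence of HELLS. All 1729 other autosomal HELLS peaks were also above IgG in both HELLS libraries. These counts were not scaled to depth.

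The share with HELLS went with H3K4me3, from 0.185% of the sites in the lowest of 5 equal groups through 4.7, 8.89 and 16.0% to 26.8% in the highest. At a like level the order depended on the group. In group 10 of the 10 H3K4me3 groups, the highest, 28.7% of those with a new peak held HELLS (interval 26.6 to 30.9%), against 13.3% of those without a DMC1 peak (interval 10.2 to 17.02%). The shares were 15.1% against 10.2% in group 9, and 8.01% against 6.76%, with intervals that overlap, in group 8. In group 7 they were 4.96% (interval 3.754 to 6.401%) against 2.69% (interval 1.845 to 3.772%), with intervals that overlap. In group 6 the order was turned round, with 1 of 722 (0.139%) against 21 of 1560 (1.35%). Tnrc18, Brd2 and Dazl held a HELLS peak, and Atm, Prdm9, Sycp3 and Psmc3ip did not.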

How the data were processed

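The authors deposited whole-number counts of reads in regions for H3K4me3, ATAC, H3K9ac and HELLS, and estimated counts of each allele for the F1 hybrids. The DMC1 lists held positions only. Per the submitters' processing notes, CASAVA, BWA 0.7.15, Bowtie 0.12.9, MACS 1.4.2 and mm10 were used; which tool made which file is not given in the sources used here. In the tables, 10 columns whose names matched no sample were not used, and 56 repeated rows of the Hells ATAC counts were dropped. Where ATAC columns name KI or B6 with no sample, replicate numbers merely name columns. Reads in regions numbered 13321006 to 42007820 per library for H3K4me3, 6416704 to 11352108 for Hells ATAC, 27952728 to 34572929 for KI and B6 ATAC and 13195275 to 30233934 for H3K9ac.

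Starts came from GENCODE M21, and an overlap was at least 1 bp. Counts were tested over each whole table with edgeR 4.0.16 in R 4.3.3 (quasi-likelihood test, TMM, filterByExpr, Benjamini-Hochberg threshold 0.05), and DESeq2 1.42.0 was an alternative. All groups of a histone mark entered its fit together, and a lone library borrows the spread of the replicated groups. The test was also run on simulated counts with larger set changes, which does not show whether changes as small as these medians could be called. Other values were computed with Python 3.11.15, pandas 2.3.3 and scipy 1.17.1, and figures with matplotlib 3.10.9. Intervals of shares are exact 95% binomial intervals and cover counting error only.

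Named sites were the 3 with the lowest p in each Hells comparison where none passed, the 6 with the most H3K4me3, up to 4 of each gene list by H3K4me3, the 3 widest and those nearest the distance limit, and the text gives a choice of them. The members, the gene lists and the motifs were chosen with earlier results of these data known.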

Additional observations from a re-analysis of the deposited data

How the results depend on the processing

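Of 125 alternative values, 91 were taken as the same as the reported one, 33 moved by more and 1 did so with a change of sign. Medians were the same if they differed by less than the SD of the library medians of the first group named. Counts were the same if equal, 0 and 0 included, or within 1.5 times, and shares if inside the exact binomial interval. The cause was not tested. Medians near 0 also changed sign: ATAC in Hells CKO was 0.03 without Hells wt replicate 1, H3K9ac in KI -0.07 without KI replicate 1, and H3K4me3 in Spo11/Spo11 -0.02 without replicate 2. For H3K4me3 in Hells CKO over Hells wt, the sites higher numbered 513 with DESeq2, where 1.32% of all regions were. With RLE factors 4 were (0.051%), where 0.095% of all regions were. Against all libraries with HELLS present, 85 were higher (1.09%) and 12 lower (0.153%). Promoters without a DMC1 peak had 5.75% higher and 1.25% lower in that setting. With library size only, and with factors from promoter regions (median 0.15), 1 was lower, where 12.0% and 12.2% of all regions were. Leaving out a Hells CKO replicate gave 0 to 1514 higher and 0 to 16 lower. For ATAC in Hells CKO, the library series as a block gave 1 higher. For ATAC in KI over B6, DESeq2 gave 37 lower, and leaving out a replicate gave 2 to 110 higher, 0 to 2863 lower and medians of -0.2945 to -0.0823. For H3K9ac in KI over B6, DESeq2 gave 112 higher and 16 lower, library size only gave 10 lower and turned the median to -0.10, and leaving out a replicate gave 0 to 1736 higher and 0 to 1232 lower. Shares over all regions are not given here for DESeq2 or library size only in KI over B6. Nor are they given for H3K4me3 against all libraries with HELLS present. Counts of sites in those settings are therefore not a result about the sites. Without chromosome 4, the share of promoters with a new peak in the last 3 Mb was 9.14%. Peaks of at least the median width of the Hells CKO list left 4967 sites. Chosen after the data were seen, the level per kb gave 78.2% and the level in Hells CKO 72.3% in the highest of the 10 H3K4me3 groups. No paired analysis was possible because the labels give no replicate numbers that tie libraries of different groups. A library series inferred from nearby library numbers was the block used for Hells ATAC. The DMC1 lists carry no score and no replicates, so that the error of the list itself is unknown.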

Other observations

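In (B6xCAST) F1 hybrids, whose reads the authors assigned to the B6 or the CAST allele, these promoters were close to balance. With at least 20 allele counts, the median share of the B6 allele was 50.5 and 50.4% in the 2 ATAC libraries and 51.0% in the H3K9ac library. It lay between 40 and 60% at 90.2, 89.7 and 90.6% of the sites, against 61.4, 62.9 and 60.4% of other autosomal regions. The other regions had fewer reads, with medians of 65, 62 and 50 allele counts against 338, 292 and 286 at the promoters. With at least 200 allele counts, the shares were 95.8, 95.7 and 97.2% against 76.2, 78.0 and 85.2%.

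Of 7448 sites measured in all 3 F1 libraries, 16 had over 70% and 6 under 30% of the B6 allele in each (0.215% and 0.0806%). Of 41023 other autosomal regions so measured, 1172 had over 70% and 1137 under 30% (2.86% and 2.77%), with the lower depth given above. The Nfyc promoter, of a subunit of the CCAAT-binding factor NF-Y, had 83.2 and 81.1% in ATAC and 76.3% in H3K9ac. The Ifngr2 promoter, of an interferon gamma receptor chain, had 78.2 and 76.5% in ATAC and 83.7% in H3K9ac. The Ubxn7 promoter had 13.3 and 7.62% in ATAC and 14.1% in H3K9ac. These were chosen after their values were seen, and mapping to 2 genomes was not tested.

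The sites lay a median of 45.7 kb from the nearest Hells het peak, and 337 of them (4.03%) within 5 kb, against 57.01 kb and 3.82% for promoters with H3K4me3 and no DMC1 peak. The share of promoter regions with a new peak differed between autosomes, from 27.5% on chromosome 7 to 45.4% on chromosome 16. Those shares were not matched for H3K4me3. Above the median H3K4me3 level, the share was 53.5% on chromosome 7 and 72.9% on chromosome 16, and the lowest was 49.48% on chromosome 15.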
